A study of Mus musculus with 8 samples.

Results

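The nuclear genes for the subunits of the mitochondrial respiratory chain and ATP synthase were followed in 4 mouse mammary carcinoma lines. Members were the protein-coding genes whose GENCODE M21 symbol begins with Ndufa, Ndufb, Ndufc, Ndufs, Ndufv, Uqcr, Cox4 to Cox8 or Atp5, together with Sdha, Sdhb, Sdhc and Sdhd. The tables held 93 such genes, and 88 of them had at least 10 counts in total, out of 21046 genes with that many. They comprised 38 genes of complex I, 4 of complex II, 8 of complex III, 13 of complex IV and 17 of ATP synthase. The other 8 were Ndufaf genes, which encode assembly factors of complex I and not subunits. The symbols follow older usage in places: Ndufa4 is now placed in complex IV, and Cyc1, the cytochrome c1 of complex III, is outside the rule. The 5 genes below 10 counts were isoforms of complex IV, and Cox4i2 and Ndufa4l2 were too low to test, which left 86 tested members.

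Messenger RNA was sequenced from 687g and Epcam hi, lines derived from tumours of MMTV-PyMT-Snail-IRES-YFP mice, and from pB3 and pB2, lines derived from tumours of MMTV-PyMT mice. All 4 lines are on the C57BL/6 background and were untreated, adherent cells in DMEM/F12 medium with bovine serum. In both mouse models the MMTV promoter drives the polyoma middle T oncogene in mammary epithelium, and the Snail-IRES-YFP allele is a reporter. Each line had 2 libraries, and the labels do not say whether these were separate cultures, so every p-value measures only the spread between these libraries, which may be technical. Each line is also a single cell line, so a difference between lines cannot be told apart from a difference between mouse models, tumours or clones.

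The respiratory chain passes electrons from NADH (at complex I) and succinate (at complex II) through coenzyme Q, complex III and cytochrome c to oxygen at complex IV. Complexes I, III and IV pump protons across the inner mitochondrial membrane, and ATP synthase uses the return of those protons to make ATP. Most subunits are encoded in the nucleus, and mitochondrial DNA (mtDNA) encodes a small set of hydrophobic core subunits, with none in complex II. Nuclear respiratory factor NRF1, the ETS factor GABPA, YY1 and estrogen-related receptors bind many of the nuclear promoters, and the coactivators PGC-1α (Ppargc1a) and PGC-1β (Ppargc1b) act through such factors.

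Letters that match the motifs of these factors were looked for in the members' promoters, and sequences are shown for the members that differed most among the lines. RefSeq promoter windows (GRCm38.p6, 250 bases before to 50 after the gene start) were available for 73 of the 88 members. The motif CGCANGCG (NRF1-like) was present on either strand in 26 of the 73 member windows (35.6%), and in 11.4% of 17492 windows of protein-coding genes. AAGATGGCG (YY1-like) was present in 9.6% of member windows and 1.9% of all coding windows, CCGGAAGT (ETS-like) in 6.8% and 5.3%, and TCAAGGTCA (ERR-like) in 2.7% and 0.3%. No matches of different motifs overlapped in a member window, and the median GC content was 59.0% in member windows and 56.3% in all coding windows. Of the 6 members with the smallest adjusted p for a difference among the 4 lines in their complex, the 5 whose window held a match are shown, on the gene's strand from 5′ to 3′, with each match in capitals.
Atp5j2 (chr5:145191492-145191791, minus strand): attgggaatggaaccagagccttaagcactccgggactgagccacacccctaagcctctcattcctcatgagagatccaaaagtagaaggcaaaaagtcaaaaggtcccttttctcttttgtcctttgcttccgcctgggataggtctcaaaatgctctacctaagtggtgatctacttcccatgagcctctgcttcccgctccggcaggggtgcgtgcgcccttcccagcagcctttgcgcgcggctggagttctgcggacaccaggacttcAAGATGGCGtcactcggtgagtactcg
Ndufaf8 (chr11:120098684-120098983, plus strand): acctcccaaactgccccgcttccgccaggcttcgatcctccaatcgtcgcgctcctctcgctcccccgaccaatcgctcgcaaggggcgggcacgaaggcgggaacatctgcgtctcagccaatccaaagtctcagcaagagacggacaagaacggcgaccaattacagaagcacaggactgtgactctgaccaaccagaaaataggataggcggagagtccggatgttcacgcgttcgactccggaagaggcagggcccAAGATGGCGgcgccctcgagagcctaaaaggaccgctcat
Sdha (chr13:74350191-74350490, minus strand): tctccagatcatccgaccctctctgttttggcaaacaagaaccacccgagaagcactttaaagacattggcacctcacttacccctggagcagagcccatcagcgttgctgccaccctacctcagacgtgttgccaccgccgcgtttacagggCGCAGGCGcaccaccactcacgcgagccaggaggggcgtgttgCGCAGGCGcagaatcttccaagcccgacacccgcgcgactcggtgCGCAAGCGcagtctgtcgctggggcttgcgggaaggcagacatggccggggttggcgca
Uqcr11 (chr10:80406772-80407071, minus strand): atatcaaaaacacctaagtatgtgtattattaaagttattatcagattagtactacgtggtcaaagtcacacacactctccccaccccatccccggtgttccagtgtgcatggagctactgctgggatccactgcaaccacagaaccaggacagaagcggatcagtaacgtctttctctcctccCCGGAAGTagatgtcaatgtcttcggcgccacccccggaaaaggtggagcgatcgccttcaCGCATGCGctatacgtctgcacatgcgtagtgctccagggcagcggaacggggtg
Cox8a (chr19:7217567-7217866, minus strand): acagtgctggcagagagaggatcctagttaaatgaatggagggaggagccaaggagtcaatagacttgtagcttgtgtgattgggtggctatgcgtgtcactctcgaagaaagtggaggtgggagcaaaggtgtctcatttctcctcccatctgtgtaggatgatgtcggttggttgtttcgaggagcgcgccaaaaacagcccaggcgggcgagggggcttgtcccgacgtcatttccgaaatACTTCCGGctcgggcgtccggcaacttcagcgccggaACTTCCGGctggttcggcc
The capitals mark a YY1-like match in Atp5j2 and in Ndufaf8, 3 NRF1-like matches in Sdha, 1 ETS-like and 1 NRF1-like match in Uqcr11, and 2 ETS-like matches, read on the other strand, in Cox8a. The window of Ndufb8, the sixth of these members, held no match, as was the case for 38 of the 73 windows. A match describes letters in the sequence and was not tested as a binding site. The 26 tested members with an NRF1-like match had a median log2 fold change of -0.92 in Epcam hi against pB2. It was -0.69 for the 47 tested members without one. In pB3 against pB2, which shares the pB2 libraries, the medians were -0.56 and -0.48. They were 0.34 and 0.18 in 687g against Epcam hi, and -0.1 and 0.02 in 687g against pB3. These differences were not tested.

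Library totals ranged from 12442730 to 19149916 counts, and levels are given as CPM, that is, counts scaled to a common library size with TMM factors. Levels compared between genes are given as RPKM, which also divides by the length of the gene's principal transcript. By that scale the median over members was 361 RPKM for ATP synthase, 189 for complex I, 37.7 for the Ndufaf genes, 117 for complex II, 271 for complex III and 392 for complex IV. Of the 81 members with a mean of at least 10 CPM, 71 were higher in 687g replicate 2 than in replicate 1 (median log2 ratio 0.357), and 54 were higher in Epcam hi replicate 2 (0.157). In pB3 and pB2 the numbers were 22 and 24. The 687g ratio ranged from -0.824 for Sdha to 0.795 for Cox6c and correlated with the log2 transcript length at r = -0.461 across these 81 genes, which share both libraries and are not independent. The same correlation was -0.278 in Epcam hi, 0.336 in pB3 and -0.176 in pB2. Mitochondrial genes took 1.03% and 1.90% of counts in 687g, 0.375% and 1.09% in Epcam hi, 0.737% and 0.578% in pB3, and 0.456% and 0.887% in pB2. Of the epithelial markers, the keratins Krt8 and Krt18 were at 94.3 CPM or more in every library, while Epcam was at 3.85 and 3.70 CPM and Cdh1 at 1.90 and 0.739 CPM in 687g. Summed leukocyte markers reached at most 2.79 CPM, endothelial markers 0.874 CPM, adipocyte markers 0.211 CPM and testis markers 0.0703 CPM. Tnnt2, a cardiac troponin, was the exception among the muscle markers, at 362 to 798 CPM in 687g, Epcam hi and pB3 against 3.26 and 1.96 CPM in pB2, while Myh7 was at 0 in every library, Ckm at 0.164 CPM or less and Acta1 at 1.97 CPM or less.

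The members were highest in pB2. In 56 of the 86 tested members (65.1%) both pB2 libraries lay above all 6 other libraries, a pattern seen in 24.2% of the 15890 genes tested. At the other end, both Epcam hi libraries lay below all others in 26 members (30.2%), against 11.3% of genes tested. The remaining patterns of this kind took few members: both libraries lay above all others in 3 members in 687g, 1 in Epcam hi and 1 in pB3 (12.6%, 13.2% and 7.78% of genes tested). They lay below all others in 5 members in 687g, 2 in pB3 and 1 in pB2 (12%, 6.11% and 21.8% of genes tested). By line means, 70 members were highest in pB2, 10 in 687g, 4 in pB3 and 2 in Epcam hi, and 52 were lowest in Epcam hi, 24 in 687g, 7 in pB3 and 3 in pB2. In the edgeR test over all 4 lines, 68 of the 86 members differed at an adjusted p under 0.05, against 66.5% of genes tested. The joint count was 41 without pB2 replicate 1, and 32 members were called whichever library was left out.

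**Figure D1:**
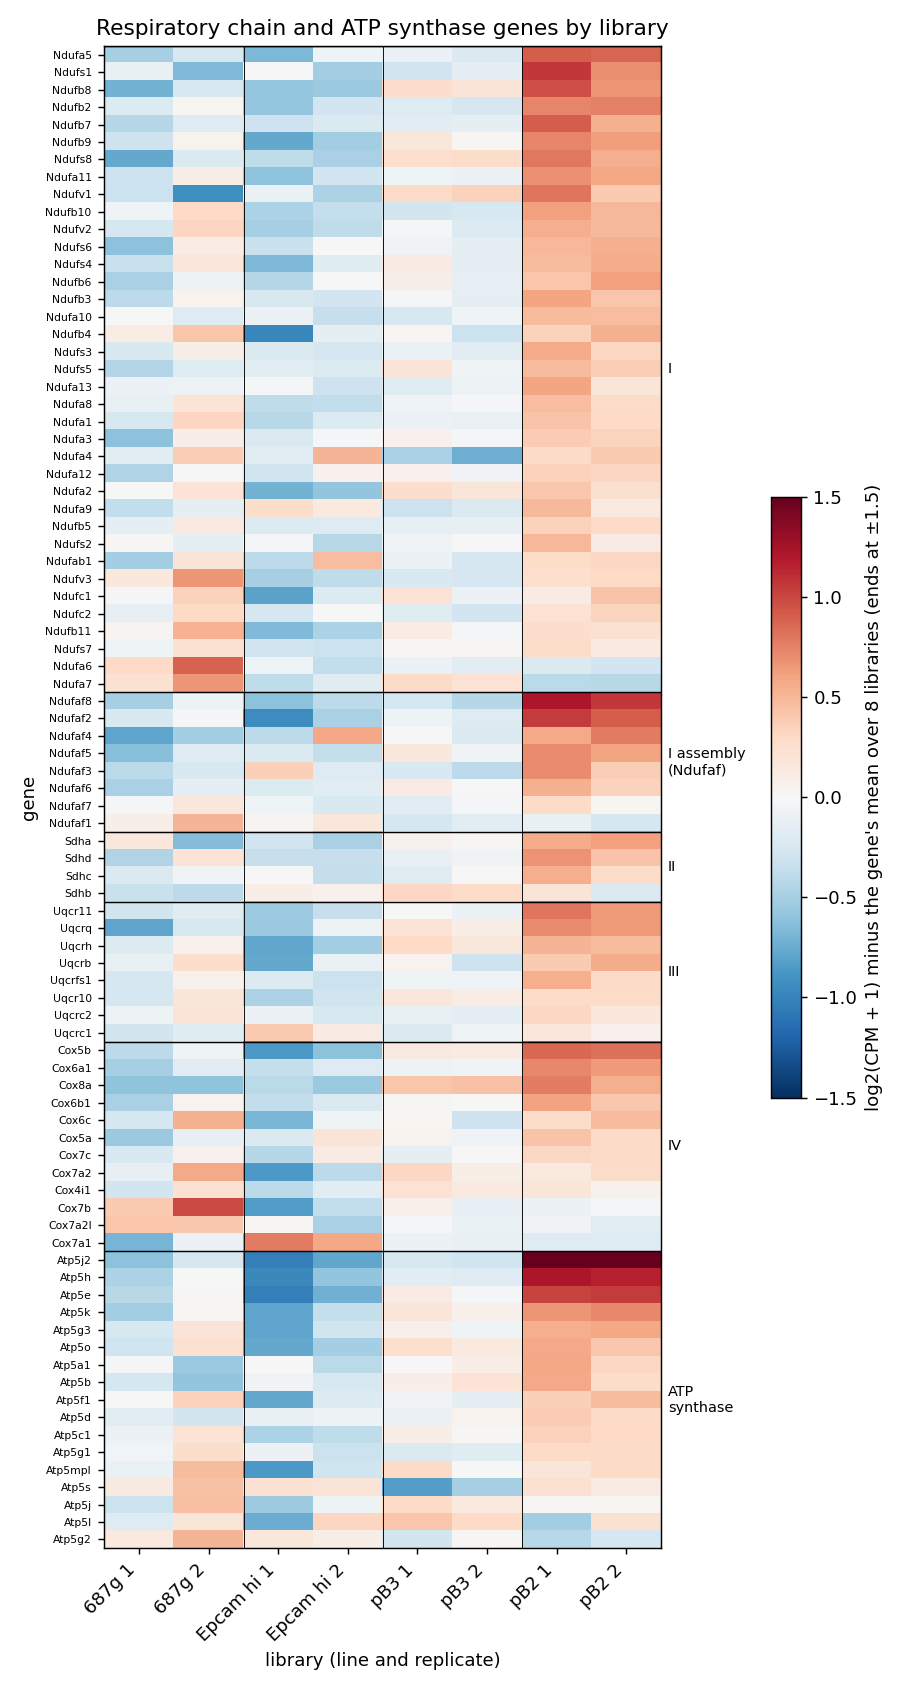
Heat map of the 86 tested members (rows, by complex) in the 8 libraries (columns, by line), as log2(CPM + 1) minus the gene's mean over the 8 libraries, with red above and blue below that mean. Most rows are red in both pB2 columns, Epcam hi holds many of the deepest blues, and 687g replicate 2 is redder than 687g replicate 1.

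Summed over the 88 members, the level was 21036 and 26766 CPM in 687g, 18243 and 20319 CPM in Epcam hi, 25489 and 24296 CPM in pB3, and 34453 and 32446 CPM in pB2. Both pB2 sums were thus above the other 6, and the 687g libraries were the furthest apart. The sum of complex I was 7189 ± 1337 CPM in 687g, 6033 ± 537 in Epcam hi, 6986 ± 288 in pB3 and 9970 ± 472 in pB2 (mean ± SD, n = 2 libraries). ATP synthase differed more, at 6971 ± 627 CPM in 687g, 5770 ± 273 in Epcam hi, 8003 ± 143 in pB3 and 11547 ± 459 in pB2. Complex IV stood at 5892 ± 1548 CPM in 687g, 4063 ± 563 in Epcam hi, 5632 ± 307 in pB3 and 6289 ± 162 in pB2, and its 687g libraries spanned the pB3 and pB2 levels. Complex III stood at 2723 ± 404 CPM in 687g, 2303 ± 88.6 in Epcam hi, 3006 ± 102 in pB3 and 3830 ± 162 in pB2. Complex II, the smallest sum of a complex, stood at 753 ± 78.9 CPM in 687g, 737 ± 42.7 in Epcam hi, 862 ± 18.9 in pB3 and 1132 ± 131 in pB2. The Ndufaf genes together reached 374 ± 56.1 CPM in 687g, 375 ± 49.2 in Epcam hi, 403 ± 21.2 in pB3 and 681 ± 32.0 in pB2. In these bulk libraries fewer transcripts per cell and fewer cells with the transcripts cannot be told apart.

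**Figure D2:**
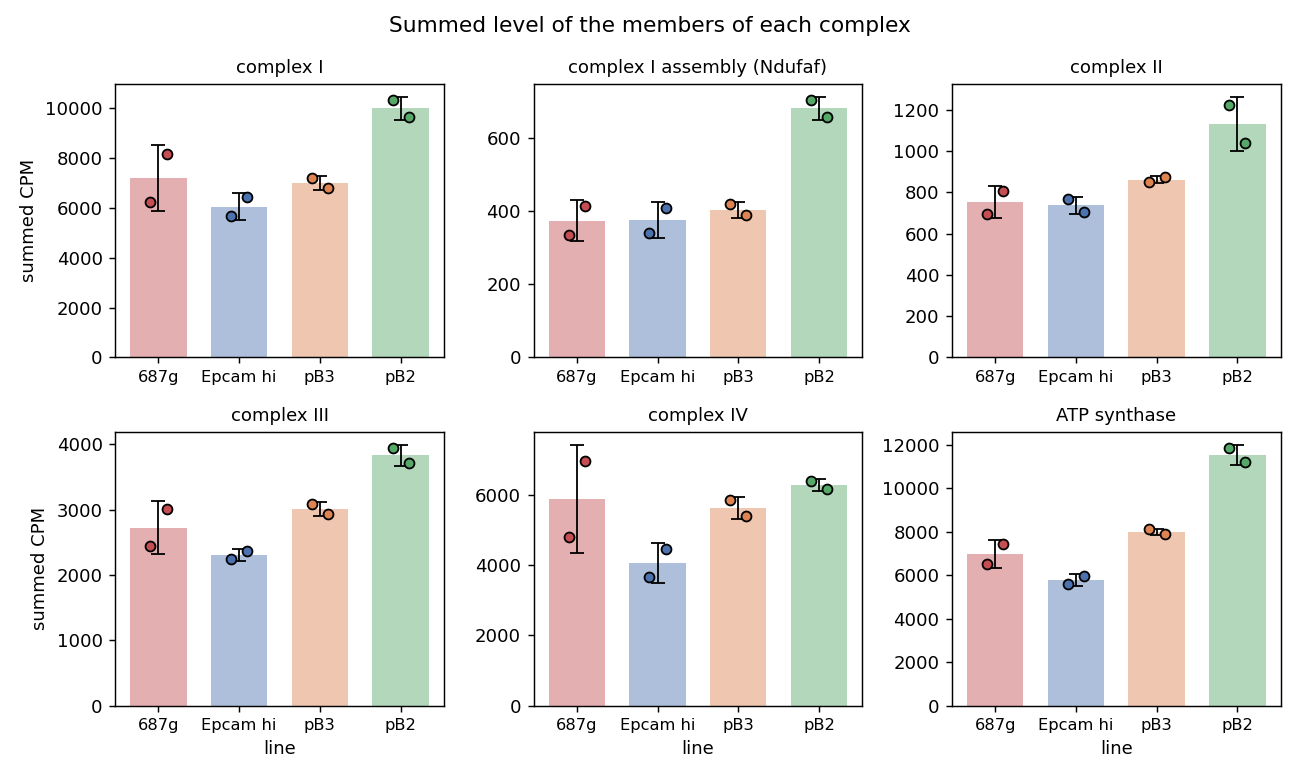
Summed CPM of the members of each complex (linear axis from 0) in 687g, Epcam hi, pB3 and pB2. Points are libraries, bars are means and error bars are the SD of 2 libraries; both pB2 libraries lie above all others in every panel except complex IV, where 687g replicate 2 at 6986 CPM lies above them.

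For the lines of the MMTV-PyMT model, 37 of the 86 members were lower and 1 was higher in pB3 than in pB2, where 23.2% of genes tested were lower and 21.6% higher. The median log2 fold change of the members was -0.51, against 0.02 over all genes tested. Complex I held 20 of the lower members among its 37, the Ndufaf genes 5 of 8, ATP synthase 6 of 17, and complexes II, III and IV 2 each of 4, 8 and 12. The shares in complexes III and IV, 25.0% and 16.7%, were near or below the 23.2% of all genes tested. The count fell to 15 without pB2 replicate 1 and 21 without pB2 replicate 2. It fell to 13 without pB3 replicate 1 and 12 without pB3 replicate 2. The 10 members called whichever library was left out were Atp5e, Atp5h, Atp5j2, Ndufa5, Ndufaf2, Ndufaf8, Ndufb10, Ndufb2, Ndufb7 and Ndufs1. Scaling by total counts alone moved the median of all genes tested to -0.17 and called 1 member higher and 63 lower.

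In the lines of the Snail-IRES-YFP reporter model, 21 members were higher and 3 lower in 687g than in Epcam hi, where 18.4% of genes tested were higher and 18.0% lower. The median log2 fold change was 0.22 over the members and -0.03 over all genes tested. ATP synthase held 6 of the higher members among its 17, complex I 9 of 37, complex IV 4 of 12, complex III 1 of 8, and the Ndufaf genes 1 of 8. The shares in complex III and the Ndufaf genes, 12.5% each, were below the 18.4% of all genes tested. In complex II, 0 of 4 were called by edgeR or DESeq2, and 1 had an unadjusted edgeR p under 0.05. Without 687g replicate 2, the library with the higher members and the larger mitochondrial share, 9 members were called, and 9 without Epcam hi replicate 1. The 6 called whichever library was left out were Cox7b, Ndufa2, Ndufa6, Ndufa7, Ndufb11 and Ndufv3. With total-count scaling the median of all genes tested moved to -0.15, and 11 members were higher and 5 lower. With only these lines in the fit, 8 members were higher and 2 lower.

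A test of the difference itself, the log2 change of 687g over Epcam hi minus that of pB3 over pB2, was called positive for 40 members and negative for 1, Sdhb, at an adjusted p under 0.05. Over all genes tested, 18.2% were called positive and 19.5% negative. The pB2 libraries enter this test too, so it is not separate from the members' high levels in pB2. Called or not, the difference was below 0 in 8 of the 86 members. The median difference was 0.70 over the members and -0.07 over all genes tested. It was called for 20 of 37 complex I members, 9 of 17 of ATP synthase, 5 of 12 of complex IV, 3 of 8 of complex III, 2 of 8 Ndufaf genes and Sdhd of complex II, in each case with a positive sign. The count fell to 21 without pB2 replicate 1, 21 without pB3 replicate 1 and 19 without pB3 replicate 2, and 17 members were called whichever library was left out.

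In Epcam hi set against pB2, 60 members were lower and 1, Cox7a1, was higher, where 25.6% of genes tested were lower and 25.8% higher. The median log2 fold change was -0.72 over the members and 0.06 over all genes. Complex I contributed 29 of its 37 tested members, ATP synthase 12 of 17, complexes III and IV 6 each of 8 and 12, the Ndufaf genes 4 of 8 and complex II 3 of 4. This comparison shares its pB2 libraries with that of pB3 against pB2, so the members' falls in both draw on the same values. Of the 61 called members, 38 were called whichever library was left out. In 687g against pB3, 5 members were higher (5.81%) and 7 lower (8.14%), where 12.8% of genes tested were higher and 12.9% lower. The median was -0.03 over the members. Cox8a was the only member of those 12 to be called whichever library was left out. In all, 2 members were called without pB3 replicate 1 or without pB3 replicate 2 and 7 without 687g replicate 2.

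**Figure D3:**
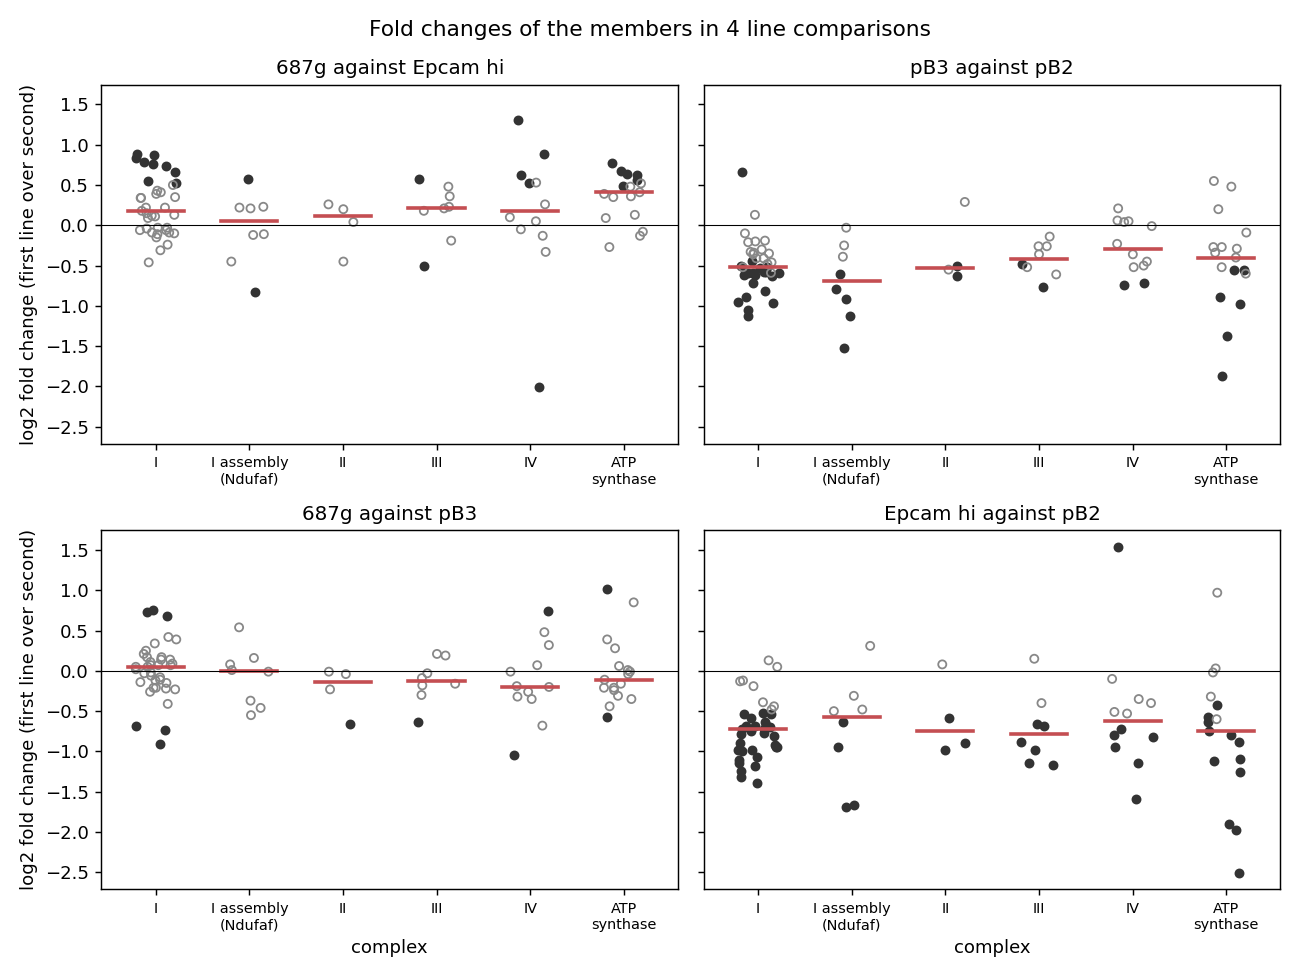
Log2 fold change of each tested member in 4 comparisons of lines, by complex, with filled points for an edgeR adjusted p under 0.05, open points otherwise and a red bar at the median. The points lie mostly below 0 for pB3 and Epcam hi against pB2, mostly above 0 for 687g against Epcam hi, and around 0 for 687g against pB3.

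Complex I, which oxidises NADH, has 7 nuclear core subunits that carry the flavin and iron-sulfur centres or line the quinone site, and many supernumerary subunits around them. In Epcam hi against pB2 all 7 core genes fell (log2 fold changes of -1.14 to -0.53), and so did 22 of the 30 tested supernumerary genes. In pB3 against pB2 the counts were 3 of 7 and 17 of 30. Over all genes tested, 25.6% were lower in Epcam hi and 23.2% in pB3 than in pB2. The core gene that fell most was Ndufs1, which carries several iron-sulfur clusters, at 142 and 96.0 CPM in 687g, 152 and 106 CPM in Epcam hi, 124 and 138 CPM in pB3, and 319 and 249 CPM in pB2. Both pB2 libraries were above the other 6, which overlapped. Its log2 fold change, here and below with the standard error of the fit, was -1.14 ± 0.23 in Epcam hi (adjusted p = 0.000958, at most 0.0159 without a library) and -1.12 ± 0.23 in pB3 (0.00128, at most 0.0227). Ndufb8, a supernumerary subunit of the membrane arm that is widely used as a marker of assembled complex I, was at 328 and 455 CPM in 687g, 360 and 365 CPM in Epcam hi, 647 and 615 CPM in pB3, and 1049 and 853 CPM in pB2. The 4 lines fell into 3 levels without overlap, with pB2 highest, pB3 between, and 687g and Epcam hi together at the bottom. Its log2 fold change was -1.39 ± 0.20 in Epcam hi against pB2 (adjusted p = 4.85e-05), -0.59 ± 0.20 in pB3 against pB2 (0.024) and -0.69 ± 0.20 in 687g against pB3 (0.0185). The Epcam hi call held whichever library was left out (adjusted p at most 0.00129). The fall in pB3 was not called without pB2 replicate 1 (0.213), pB3 replicate 1 (0.118) or pB3 replicate 2 (0.172), and that in 687g was not called without pB3 replicate 1 (0.141), pB3 replicate 2 (0.0963) or 687g replicate 1 (0.109).

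Ndufv1, the flavin-bearing core subunit where NADH is oxidised, was at 78.9 and 51.5 CPM in 687g, 91.7 and 70.6 CPM in Epcam hi, 121 and 125 CPM in pB3, and 172 and 130 CPM in pB2. Ndufs8, a core iron-sulfur subunit, was at 106 and 155 CPM in 687g, 138 and 129 CPM in Epcam hi, 215 and 218 CPM in pB3, and 312 and 263 CPM in pB2. For both genes the 687g and Epcam hi ranges overlapped, and each of those 4 libraries was below the pB3 and pB2 libraries. In 687g against pB3 the log2 fold change was -0.91 ± 0.23 for Ndufv1 (adjusted p = 0.00891) and -0.73 ± 0.20 for Ndufs8 (0.0146). The Ndufv1 call was lost without pB3 replicate 2 (0.0507) or 687g replicate 2 (0.0681), and the Ndufs8 call without pB3 replicate 1 (0.0884), pB3 replicate 2 (0.107) or 687g replicate 1 (0.0934).

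Ndufa7, Ndufa6 and Ndufv3 were among the complex I genes whose highest mean level was in 687g. Ndufa7, a supernumerary subunit of the matrix arm, was at 465 and 631 CPM in 687g, 304 and 349 CPM in Epcam hi, 484 and 464 CPM in pB3, and 301 and 298 CPM in pB2. It was the only member called higher in pB3 than in pB2 (log2 fold change 0.66 ± 0.19, adjusted p = 0.0102), a call lost without any 1 of the 4 libraries of those lines (0.0628 to 0.0903). It was higher in 687g than in Epcam hi whichever library was left out (0.74 ± 0.19, adjusted p = 0.00639, at most 0.0434). Ndufa6, another matrix-arm subunit, was at 147 and 221 CPM in 687g, 114 and 91.8 CPM in Epcam hi, 112 and 107 CPM in pB3, and 102 and 97.3 CPM in pB2. Both 687g libraries were above the other 6. Its log2 fold change was 0.84 ± 0.21 against Epcam hi (adjusted p = 0.00601, at most 0.0400 without a library) and 0.75 ± 0.21 against pB3 (0.0158; 0.094, 0.139 and 0.124 without pB3 replicate 1, pB3 replicate 2 or 687g replicate 2). Ndufv3, a small subunit beside Ndufv1, was at 130 and 184 CPM in 687g, 82.1 and 89.0 CPM in Epcam hi, 99.0 and 97.5 CPM in pB3, and 139 and 144 CPM in pB2. Like most of the complex it was lower in Epcam hi than in pB2 (log2 -0.72 ± 0.19, adjusted p = 0.00594, at most 0.0396 without a library). Its fall in pB3 against pB2 (-0.52 ± 0.19, adjusted p = 0.0375) was lost without any 1 library of those lines (0.12 to 0.214). It was higher in 687g than in Epcam hi (log2 0.88 ± 0.19, adjusted p = 0.00246, at most 0.0179 without a library), and its difference between the pairs was 1.40 ± 0.27 (adjusted p = 0.00091, at most 0.00647 without a library).

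The Ndufaf genes, whose products help to build complex I, held the second-largest fall in pB3. Ndufaf8 (chromosome 11, 120098928 to 120100705), which works with Ndufaf5, was at 25.4 and 34.6 CPM in 687g, 23.4 and 27.5 CPM in Epcam hi, 30.1 and 26.7 CPM in pB3, and 85.6 and 77.2 CPM in pB2. The pB2 libraries stood above all others, which overlapped among themselves. The log2 fold change was -1.52 ± 0.20 in pB3 (adjusted p = 2.88e-05, at most 0.000907 without a library) and -1.67 ± 0.20 in Epcam hi (1.03e-05, at most 0.000248). Ndufaf2, a chaperone of late assembly and the Ndufaf gene with the highest level per transcript length (mean 153 RPKM), was at 80.2 and 91.8 CPM in 687g, 48.5 and 66.7 CPM in Epcam hi, 89.3 and 82.0 CPM in pB3, and 196 and 177 CPM in pB2. Ndufaf4 was at 45.7 and 55.5 CPM in 687g, 60.4 and 120 CPM in Epcam hi, 79.5 and 68.7 CPM in pB3, and 118 and 137 CPM in pB2, and the Epcam hi libraries were the furthest apart. Its fall in 687g against Epcam hi (log2 -0.83 ± 0.26, adjusted p = 0.0241) rested on Epcam hi replicate 2, without which it was -0.17 (0.56); the call was also lost without pB2 replicate 2 (0.0563), 687g replicate 1 (0.159) or 687g replicate 2 (0.0659). Ndufaf3, the lowest of these genes per length at 8.12 RPKM, was at 8.54 and 9.74 CPM in 687g, 15.1 and 10 CPM in Epcam hi, 9.75 and 8.62 CPM in pB3, and 19.6 and 15.3 CPM in pB2.

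Complex II is succinate dehydrogenase, also an enzyme of the tricarboxylic acid cycle, and all of its subunits are nuclear. Sdha, the flavoprotein, was at 119 and 67.1 CPM in 687g, 86.6 and 75.5 CPM in Epcam hi, 111 and 108 CPM in pB3, and 156 and 163 CPM in pB2. Both pB2 libraries were above the rest, and the 687g replicates spanned the Epcam hi and pB3 values. The log2 fold change of Sdha was -0.98 ± 0.23 in Epcam hi against pB2 (adjusted p = 0.00295, at most 0.0170 without a library), and it was -0.55 ± 0.23 in pB3 against pB2 (0.0688). Sdhd, a membrane anchor, was at 255 and 403 CPM in 687g, 276 and 275 CPM in Epcam hi, 324 and 337 CPM in pB3, and 557 and 469 CPM in pB2 (adjusted p = 0.00285 in Epcam hi against pB2, at most 0.0359 without a library). Sdhb, the iron-sulfur subunit, was described because it was the only member whose difference between the pairs was called negative, a choice made after its values were seen. It was at 150 and 144 CPM in 687g, 203 and 199 CPM in Epcam hi, 236 and 229 CPM in pB3, and 216 and 163 CPM in pB2. No fall in pB3 was called (log2 0.29 ± 0.18, adjusted p = 0.203). Its difference between the pairs (-0.75 ± 0.25, adjusted p = 0.0305) was not called without pB2 replicate 2 (0.239), pB3 replicate 1 (0.151), pB3 replicate 2 (0.13), Epcam hi replicate 2 (0.0593) or 687g replicate 2 (0.0718).

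In complex III, which passes electrons from coenzyme Q to cytochrome c, all 5 small subunits fell in Epcam hi against pB2. There 25.6% of all genes tested were lower. Of the core proteins Uqcrc1 and Uqcrc2 and the Rieske protein Uqcrfs1, the last was called (not without pB2 replicate 1, adjusted p = 0.0696). Uqcr11, a small supernumerary subunit, was at 109 and 116 CPM in 687g, 90.5 and 104 CPM in Epcam hi, 131 and 125 CPM in pB3, and 231 and 206 CPM in pB2. From the lowest to the highest the lines were Epcam hi, 687g, pB3 and pB2, with no overlap between neighbours. For Uqcr11 the log2 fold change was -1.17 ± 0.17 in Epcam hi against pB2 (adjusted p = 6.18e-05, at most 0.00175 without a library) and -0.77 ± 0.17 in pB3 against pB2 (0.00193; 0.0527 without pB3 replicate 2). Uqcrh, the acidic hinge protein and the highest complex III gene per length (mean 1537 RPKM), was at 696 and 841 CPM in 687g, 468 and 560 CPM in Epcam hi, 989 and 908 CPM in pB3, and 1144 and 1122 CPM in pB2. Uqcrc1, a core protein and the lowest complex III gene per length (mean 110 RPKM), was at 148 and 158 CPM in 687g, 237 and 196 CPM in Epcam hi, 154 and 172 CPM in pB3, and 202 and 188 CPM in pB2, so the Epcam hi and pB2 libraries overlapped. Its fall in 687g against Epcam hi (log2 -0.50 ± 0.17, adjusted p = 0.0372) was lost in 7 of the 8 fits without a library (0.0701 to 0.201), all but that without Epcam hi replicate 2. Cyc1, the cytochrome c1 gene that the symbol rule misses, was at 115 and 129 CPM in 687g, 188 and 181 CPM in Epcam hi, 178 and 190 CPM in pB3, and 453 and 368 CPM in pB2, and was singled out after its values were seen.

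Complex IV, cytochrome c oxidase, reduces oxygen to water, and its small nuclear subunits surround a catalytic core encoded in mtDNA. Cox4i1, a subunit involved in regulation by ATP and the highest member per length (mean 2203 RPKM), was at 1361 and 1949 CPM in 687g, 1269 and 1487 CPM in Epcam hi, 1939 and 1847 CPM in pB3, and 1884 and 1745 CPM in pB2, and was not called in any comparison (adjusted p for the 4 lines 0.2). Cox5b, a zinc-binding subunit, had the largest fall of the complex IV genes in Epcam hi against pB2 (log2 -1.59 ± 0.18, adjusted p = 6.62e-06, at most 0.000182 without a library). It was at 99.0 and 125 CPM in 687g, 71.3 and 84.6 CPM in Epcam hi, 143 and 143 CPM in pB3, and 238 and 232 CPM in pB2, with no overlap between the 4 lines. Cox8a (chromosome 19, 7215153 to 7217616), a small subunit, was at 120 and 120 CPM in 687g, 139 and 124 CPM in Epcam hi, 245 and 250 CPM in pB3, and 314 and 269 CPM in pB2. The 687g and Epcam hi libraries were all below the pB3 and pB2 libraries. The log2 fold change of Cox8a was -1.04 ± 0.17 in 687g against pB3 (adjusted p = 0.000372, at most 0.00801 without a library) and -1.15 ± 0.17 in Epcam hi against pB2 (6.73e-05, at most 0.00194).

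Cox7b (chromosome X, 106015700 to 106022450), a subunit needed for assembly of complex IV, was the largest rise in 687g. It was at 1355 and 2042 CPM in 687g, 573 and 796 CPM in Epcam hi, 1085 and 948 CPM in pB3, and 965 and 1009 CPM in pB2. Both 687g libraries lay above and both Epcam hi libraries below all others. The log2 fold change in 687g against Epcam hi was 1.31 ± 0.23 (adjusted p = 0.00043, at most 0.00496 without a library). In 687g against pB3 it was 0.74 ± 0.22 (0.0258), which was not called without pB2 replicate 2 (0.0502), pB3 replicate 1 (0.0771), pB3 replicate 2 (0.204) or 687g replicate 2 (0.234). Cox7a2, the ubiquitous form of subunit VIIa, was at 629 and 1017 CPM in 687g, 374 and 520 CPM in Epcam hi, 844 and 723 CPM in pB3, and 754 and 826 CPM in pB2. It was higher in 687g than in Epcam hi (log2 0.88 ± 0.24, adjusted p = 0.0098), a call lost without Epcam hi replicate 1 (0.0626) or 687g replicate 2 (0.113).

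The tissue and condition isoforms of complex IV were at or near 0 beside their ubiquitous partners. Over both libraries of a line, Cox6a2, the heart and muscle form, had 0 counts in 687g, Epcam hi and pB3 and 4 in pB2, where Cox6a1 was at 171 to 398 CPM in every library. Cox8b, a muscle form, and Cox8c, a testis form, had no counts at all, and the testis forms Cox6b2 and Cox7b2 had totals of 4 and 7 counts over the 8 libraries. Cox4i2, a lung form that is raised in hypoxia, had 3 counts in 687g, 0 in Epcam hi, 4 in pB3 and 4 in pB2. Ndufa4l2, the hypoxia-induced relative of Ndufa4, had 3, 4, 3 and 8 counts in 687g, Epcam hi, pB3 and pB2. A count of 0 over both libraries allows up to 0.0914 to 0.0989 CPM (3 counts), which covers counting error only.

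Cox7a1 (chromosome 7, 30184144 to 30186078), the muscle form of subunit VIIa, was the exception, at 0.223 and 0.873 CPM in 687g, 2.39 and 1.97 CPM in Epcam hi, 0.874 and 0.842 CPM in pB3, and 0.741 and 0.743 CPM in pB2. These values rest on 4 and 13 counts in 687g and 34 and 36 in Epcam hi, while Cox7a2 was at 374 CPM or more in every library. Epcam hi stood above the rest, with a log2 fold change of 1.54 ± 0.56 against pB2 (adjusted p = 0.0335). That call was lost without pB2 replicate 1 (0.168), pB2 replicate 2 (0.18), pB3 replicate 1 (0.0587) or pB3 replicate 2 (0.0587). In 687g against Epcam hi the log2 fold change was -2.01 ± 0.58 (adjusted p = 0.0149; 0.133 without 687g replicate 1). Cox7a2l, which can join complexes III and IV into supercomplexes and is shortened in C57BL/6 mice, was at 164 and 163 CPM in 687g, 125 and 87.5 CPM in Epcam hi, 121 and 114 CPM in pB3, and 118 and 109 CPM in pB2. Ndufa4, the highest complex I symbol on the RPKM scale (mean 1201 RPKM), was at 626 and 909 CPM in 687g, 628 and 999 CPM in Epcam hi, 500 and 422 CPM in pB3, and 855 and 924 CPM in pB2. Its fall in pB3 against pB2 (adjusted p = 0.00521) was not called without pB3 replicate 2 (0.0561).

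**Figure D4:**
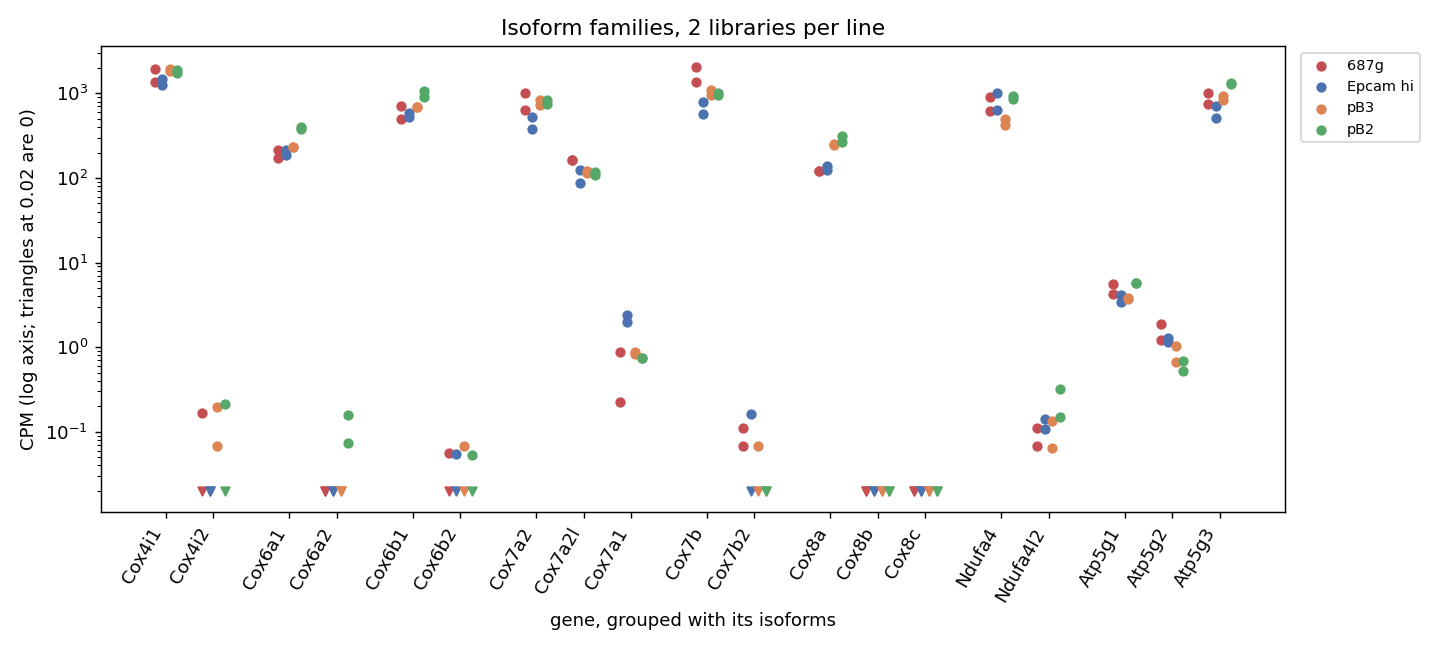
CPM (log axis) of isoforms and their partners in 687g (red), Epcam hi (blue), pB3 (orange) and pB2 (green), with 1 point per library and triangles for values of 0. The ubiquitous forms of complex IV lie at 87.5 CPM or above, the tissue forms below 1 CPM except Cox7a1 in Epcam hi, and of the 3 c-ring genes only Atp5g3 is high.

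ATP synthase held the largest falls. Atp5j2 (chromosome 5, 145183698 to 145192062), subunit f of the membrane part, was at 248 and 317 CPM in 687g, 185 and 219 CPM in Epcam hi, 321 and 308 CPM in pB3, and 1152 and 1155 CPM in pB2. The pB2 libraries were far above the other 6. The log2 fold change was -1.87 ± 0.19 in pB3 (adjusted p = 1.97e-06, at most 7.05e-05 without a library) and -2.51 ± 0.19 in Epcam hi (1.15e-07, at most 4.48e-06). Atp5h (chromosome 11, 115415689 to 115419962), subunit d of the peripheral stalk that holds the catalytic head still, was at 141 and 195 CPM in 687g, 99.8 and 129 CPM in Epcam hi, 175 and 170 CPM in pB3, and 455 and 441 CPM in pB2. It fell by a log2 fold change of -1.38 ± 0.20 in pB3 (6.61e-05, at most 0.00133) and -1.97 ± 0.20 in Epcam hi (2.33e-06, at most 6.46e-05). Atp5e (chromosome 2, 174461072 to 174464105), the epsilon subunit of the central stalk and the highest ATP synthase gene per length (mean 1934 RPKM), was at 539 and 730 CPM in 687g, 354 and 439 CPM in Epcam hi, 787 and 709 CPM in pB3, and 1458 and 1497 CPM in pB2. Its fall was -0.98 ± 0.20 in pB3 (0.000998, at most 0.0218) and -1.90 ± 0.20 in Epcam hi (3.03e-06, at most 7.90e-05).

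By part of the enzyme, all 5 genes of the F1 head and central stalk fell in Epcam hi against pB2 (log2 -1.90 to -0.43), as did 3 of 4 of the peripheral stalk, 3 of 4 of the membrane subunits and 1 of 3 of the c ring. In pB3 against pB2 1 of 5, 1 of 4, 2 of 4 and 1 of 3 were lower. Over all genes tested, 25.6% were lower in Epcam hi and 23.2% in pB3 than in pB2. The counts of 1 of 5 and 1 of 4 in pB3 were thus near the background. Atp5b, the catalytic beta subunit, was at 1562 and 1248 CPM in 687g, 1804 and 1587 CPM in Epcam hi, 2014 and 2170 CPM in pB3, and 2774 and 2267 CPM in pB2. Its log2 fold change in Epcam hi against pB2 was -0.57 ± 0.19 (adjusted p = 0.0229; 0.16 without pB2 replicate 1). Atp5k, subunit e of the membrane part, was at 126 and 185 CPM in 687g, 104 and 141 CPM in Epcam hi, 205 and 192 CPM in pB3, and 288 and 298 CPM in pB2 (log2 -1.26 ± 0.21 in Epcam hi against pB2, adjusted p = 0.000223, at most 0.00342 without a library). The c ring, the rotor through which protons pass, is encoded by 3 genes for the same mature protein. Atp5g3 was at 740 and 1002 CPM in 687g, 506 and 711 CPM in Epcam hi, 922 and 835 CPM in pB3, and 1277 and 1309 CPM in pB2. Atp5g1 was at 3.39 to 5.70 CPM and Atp5g2 at 0.518 to 1.88 CPM. Atp5s, a coupling factor B-like protein, was the largest rise in 687g against pB3 (log2 1.01 ± 0.21, adjusted p = 0.00286; 0.0832 without pB3 replicate 1), at 18.9 and 23.6 CPM in 687g, 20.2 and 19.7 CPM in Epcam hi, 9.21 and 11.8 CPM in pB3, and 20.3 and 18.7 CPM in pB2.

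Some of these levels are limited by sequence that members share with other genes, mostly processed pseudogenes. How reads that map to several genes were counted is not recorded. In 19 of the 86 tested members at least 10% of the 50-base windows of the transcript also occur in another gene, and 49 members share none. The share was 25.9% for Cox5b, with Gm11273, which is annotated as protein-coding. It was 87.4% for Atp5g2, 68.5% for Atp5l (subunit g), 53.0% for Cox7c, 50.5% for Atp5h and 11.6% for Atp5g1. The 19 genes had a median level of 70.0 CPM against 206 CPM in the other tested members. Not all of the 19 were low, and Atp5h had line means of 114 to 448 CPM. Since the counting of shared reads is not recorded, low levels of Atp5g1, Atp5g2, Atp5l and Cox7c are uncertain as levels. Whether the sharing lowered them was not tested. Ndufab1, the mitochondrial acyl carrier protein and the lowest complex I gene per length apart from Ndufa4l2 (mean 7.41 RPKM), shared 12.3%. That rank depends on the transcript used for the length, here 3479 bases. By line means Ndufab1 was at 22.2 to 31.0 CPM, and Ndufs5, with a transcript of 680 bases, at 15.4 to 26.3 CPM. The median log2 fold change in Epcam hi against pB2 was -0.70 for the 19 genes and -0.72 for the others. Among members under 10% the calls were 31 lower and 1 higher of 67 in pB3 against pB2, and 48 lower and 1 higher in Epcam hi against pB2.

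Some of the members with large falls lie in stretches of chromosome where other genes moved too, and others do not. For Atp5j2, the median log2 fold change of the 50 tested genes within 2 Mb was -1.57 in pB3 against pB2 and -1.54 in Epcam hi against pB2. The 72 tested genes around Atp5h had medians of -1.13 and -0.93, and the 85 around Ndufaf8 -0.53 and -0.46. Around Atp5e, whose own log2 fold change was -1.90 in Epcam hi against pB2, the medians were -0.27 and -0.19. In the same comparison Ndufaf2 was at -1.69 and its neighbours at -0.01, and Cox5b was at -1.59 and its neighbours at 0.05. Around Cox8a, Ndufs8 and Ndufv1 on chromosome 19, the medians were 0.71, 0.58 and 0.58 in pB3 against pB2 and -0.46 for each in 687g against pB3. Around Cox7b the median was 0.79 in 687g against pB3. Sdhb was at 0.29 in pB3 against pB2 and -0.45 in 687g against Epcam hi. The 46 tested genes around it had medians of 0.73 and -0.31. A change in copy number of these stretches was not tested. Leaving out members whose neighbourhood median lay beyond 0.5 on the log2 scale, in a check chosen after seeing the data, 33 members were lower and 1 higher of 76 in pB3 against pB2, 55 lower and 1 higher of 78 in Epcam hi against pB2, and 21 higher and 2 lower of 81 in 687g against Epcam hi. Across the 86 members, the member's own fold change correlated with the median of its neighbours at r = 0.437 in pB3 against pB2, 0.310 in 687g against Epcam hi, 0.330 in Epcam hi against pB2 and 0.465 in 687g against pB3, as a description over genes that share the same libraries.

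**Figure D5:**
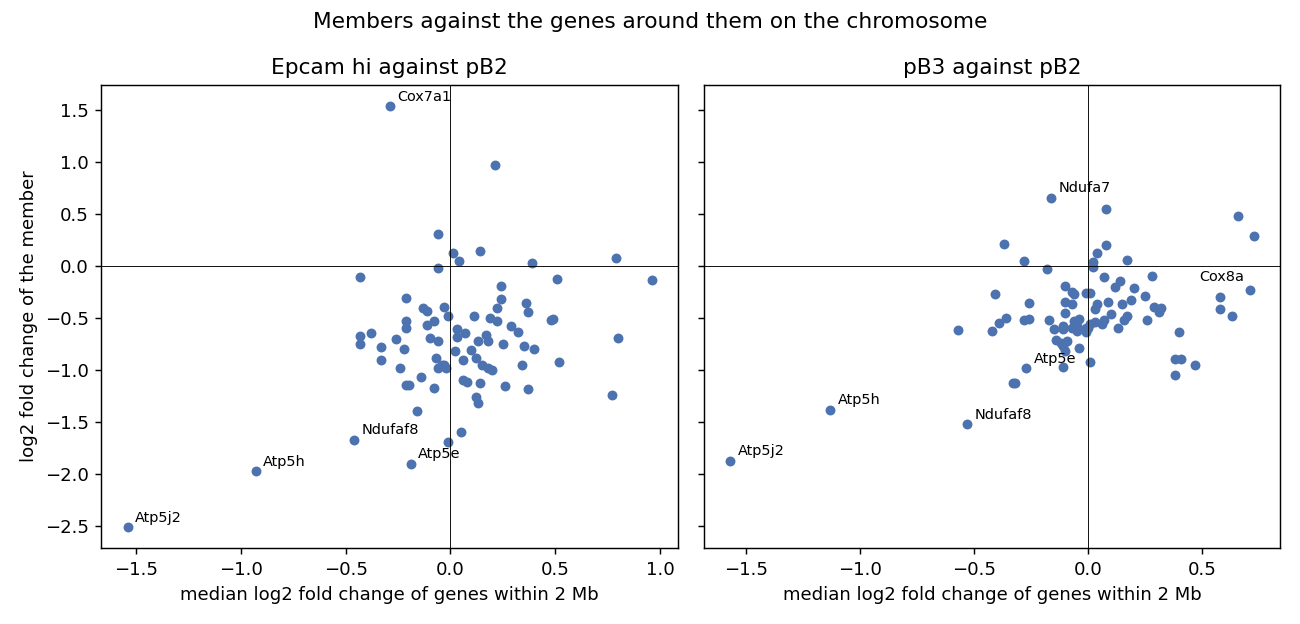
Log2 fold change of each tested member (vertical axis) against the median log2 fold change of the tested genes within 2 Mb (horizontal axis), in Epcam hi against pB2 and in pB3 against pB2. Atp5j2 and Atp5h lie at the lower left in both panels, with neighbourhood medians of -1.54 and -0.93 in the first, while most members lie below 0 at neighbourhood medians near 0.

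Of the transcriptional regulators of mitochondrial genes, 30 listed and 28 tested, 5 were higher and 5 lower in pB3 against pB2, 6 higher and 7 lower in Epcam hi against pB2, 5 higher and 3 lower in 687g against Epcam hi, and 3 higher and 2 lower in 687g against pB3. Among all genes tested, 21.6% were higher and 23.2% lower in pB3 against pB2, and 25.8% higher and 25.6% lower in Epcam hi against pB2. The shares were 18.4% higher and 18.0% lower in 687g against Epcam hi, and 12.8% higher and 12.9% lower in 687g against pB3. The regulators' counts were thus near or below the background in all 4 comparisons. The coactivator gene Ppargc1a was at 0.167 and 0 CPM in 687g, 0 and 0 CPM in Epcam hi, 0.202 and 0.259 CPM in pB3, and 10.4 and 10.5 CPM in pB2. These are 3 counts over both libraries in 687g, 0 in Epcam hi, 7 in pB3 and 338 in pB2. Against pB2 it was at least 113-fold lower in Epcam hi, taking the 0 as 3 counts over the line. It was called in both comparisons with pB2 (adjusted p = 9.52e-07 in Epcam hi and 5.53e-06 in pB3, at most 0.000216 without a library). Esrrg, an estrogen-related receptor, was at 0 CPM in all 6 libraries of 687g, Epcam hi and pB3 and at 2.30 and 3.08 CPM in pB2, at least 27.8-fold lower in pB3 and at least 29.8-fold lower in Epcam hi. Ppargc1b was at 0 CPM in both 687g libraries, 1.13 and 0.766 CPM in Epcam hi, 3.03 and 2.98 CPM in pB3, and 1.56 and 2.97 CPM in pB2. In 687g it was at least 10.1-fold lower than in Epcam hi (adjusted p = 0.000453) and at least 32.8-fold lower than in pB3 (3.95e-05). Among the factors whose motifs were counted above, Nrf1 and Gabpa differed less than Esrrg. Levels of Yy1 and of the other estrogen-related receptor genes are not given here, so Esrrg does not stand for that family. Nrf1 was at 38.6 to 51.4 CPM and Gabpa at 31.7 to 65.3 CPM over all libraries. Neither was called by edgeR in any of the 4 pair comparisons. Gabpa had an unadjusted p under 0.05 in 687g against Epcam hi and in Epcam hi against pB2, and was called by DESeq2 in both.

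The regulators called in all 4 comparisons were Epas1 and Myc, named after their values were seen. Epas1, which encodes the hypoxia-inducible factor HIF-2α, was at 8.65 and 4.64 CPM in 687g, 0.281 and 0.164 CPM in Epcam hi, 0.538 and 0.583 CPM in pB3, and 29.5 and 42.6 CPM in pB2. Myc was at 179 and 148 CPM in 687g, 304 and 247 CPM in Epcam hi, 92.8 and 96.5 CPM in pB3, and 38.8 and 54.3 CPM in pB2, with the lowest values in pB2, where most members were highest. Its calls against pB2 held without any 1 library. That in 687g against Epcam hi was lost without 687g replicate 2 or Epcam hi replicate 1, and that in 687g against pB3 without 687g replicate 1, pB3 replicate 1 or pB3 replicate 2 (highest adjusted p 0.0803 and 0.102). Whether any of these regulators bears on the members was not tested.

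Of 44 tested assembly factors outside the symbol rule, 20 were lower and 2 higher in pB3 against pB2 and 22 lower and 1 higher in Epcam hi against pB2, beside 6 higher and 5 lower in 687g against Epcam hi and 1 higher and 2 lower in 687g against pB3. The shares over all genes tested were 23.2% lower and 21.6% higher in pB3 against pB2, 25.6% lower and 25.8% higher in Epcam hi against pB2, 18.4% higher and 18.0% lower in 687g against Epcam hi, and 12.8% higher and 12.9% lower in 687g against pB3. Cox19, which takes part in copper delivery to complex IV, was at 81.2 and 108 CPM in 687g, 37.9 and 50.2 CPM in Epcam hi, 73.6 and 59.5 CPM in pB3, and 299 and 283 CPM in pB2. The log2 fold change of Cox19 was -2.13 ± 0.21 in pB3 against pB2 (adjusted p = 1.88e-06), -2.72 ± 0.22 in Epcam hi against pB2 (1.78e-07) and 1.10 ± 0.21 in 687g against Epcam hi (0.000855), each called whichever library was left out. Cox18, which inserts the mtDNA-encoded subunit COX2 into the membrane, was at 3.68 and 4.03 CPM in 687g, 8.51 and 8.37 CPM in Epcam hi, 5.78 and 5.51 CPM in pB3, and 6.00 and 6.47 CPM in pB2. It was lower in 687g than in Epcam hi (log2 -1.13 ± 0.26, adjusted p = 0.00345, at most 0.0206 without a library). Coa7, a complex IV assembly factor, was at 13 and 8.87 CPM in 687g, 13.1 and 15.4 CPM in Epcam hi, 22.3 and 21.4 CPM in pB3, and 46.3 and 36.8 CPM in pB2. Its log2 fold change was -0.99 ± 0.23 in 687g against pB3 (0.00515, at most 0.0486).

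Of the 13 subunits encoded in mtDNA, 7 could be tested, and none of the 7 was called in pB3 or Epcam hi against pB2 by edgeR or DESeq2. At an unadjusted p under 0.05 in edgeR the counts were 0 in pB3 and 1 in Epcam hi. Their summed level was 9706 and 18875 CPM in 687g, 3097 and 9995 CPM in Epcam hi, 6828 and 5248 CPM in pB3, and 3511 and 6930 CPM in pB2, so the Epcam hi libraries lay on both sides of all pB3 and pB2 libraries. In 687g, 3 were higher than in Epcam hi (mt-Nd2, mt-Nd5 and mt-Nd6, adjusted p of 0.0417, 0.0243 and 0.0175) and 2 higher than in pB3 (mt-Nd6 at 0.0477 and mt-Co1 at 0.0248). None of these 5 calls held without 687g replicate 2 (adjusted p of 0.122 to 0.321) or in DESeq2 (0.084 to 0.187). mt-Nd3, mt-Nd4l, mt-Co3, mt-Atp6 and mt-Atp8 had no counts in any library and mt-Co2 had 1, and 98.0% to 100% of the 50-base windows of mt-Nd3, mt-Nd4l, mt-Co2, mt-Co3 and mt-Atp6 also occur in other genes, so the levels of these 5 cannot be read as expression. No 50-base window of mt-Atp8 occurs in another gene, though 21.1% of its length overlaps mt-Atp6. Of the tested genes, mt-Co1 shares 51.1% of its windows and mt-Nd4 62.2%.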

How the data were processed

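The authors sequenced KAPA mRNA HyperPrep libraries of RNeasy-extracted RNA, per the labels' protocols. STAR 2.6.1a, featureCounts and the GRCm38/mm10 build are named in the submitters' processing notes, and the featureCounts version, strand setting and handling of multi-mapped reads are not given in the sources used here. The deposited values are whole-number read counts per Ensembl gene, not normalised by the authors.

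Counts were fitted with edgeR 4.0.16 (R 4.3.3): filterByExpr, TMM factors, a quasi-likelihood fit of 1 coefficient per line over all 8 libraries, and Benjamini-Hochberg adjustment over all 15890 genes tested, with calls at an adjusted p under 0.05. The precision rested on 2 libraries per line, 4 residual degrees of freedom and a median of 9.35 prior degrees of freedom borrowed from other genes. Sampling intervals and floors of 3 counts cover counting error only. Gene models came from GENCODE M21 and promoters from RefSeq. DESeq2 1.42.0, other scalings, no expression filter, fits of only the lines compared, a replicate block and leaving out each library were alternatives. Fits were tested on simulated data. Replicate numbers did not pair libraries across lines.

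The members and lists were chosen with earlier results of these data known. Named members were isoforms with their partners, the 3 largest called changes each way per comparison, the smallest p per complex, the highest and lowest level per length per complex, and the largest called change per list. A few others were named after their values were seen: Sdhb, Ndufs1, Cox5b, Atp5b, Atp5k, Sdhd, Cyc1, Epas1, Myc, Nrf1 and Gabpa.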

Additional observations from a re-analysis of the deposited data

Results flagged for a closer look

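For many members, the change of 687g over Epcam hi differed from that of pB3 over pB2 in a test of the difference itself. The pB2 libraries enter this test, so it is not separate from the members' high levels in pB2. At an adjusted p under 0.05 in edgeR, the log2 difference was called positive for 40 of the 86 tested members and negative for 1, Sdhb, where 18.2% of all genes tested were called positive and 19.5% negative. In 7 members the test of the difference was called and each pair was called too, in opposite directions. The log2 difference was 1.66 for Atp5e, 1.93 for Atp5h, 1.37 for Ndufb10, 1.11 for Ndufb9, 1.40 for Ndufv3, 1.70 for Ndufaf2 and 1.24 for Cox5b. For Atp5h, the 72 tested genes within 2 Mb had a median log2 fold change of -1.13 in pB3 against pB2 and -0.21 in 687g against Epcam hi. Ndufb10, a membrane-arm subunit of complex I, was at 210 and 271 CPM in 687g against 157 and 171 CPM in Epcam hi, and at 181 and 186 CPM in pB3 against 338 and 309 CPM in pB2. Ndufb9, another membrane-arm subunit, was at 262 and 336 CPM in 687g against 190 and 227 CPM in Epcam hi, and at 365 and 329 CPM in pB3 against 540 and 503 CPM in pB2. All 7 differences were called whichever library was left out. The calls in the single pairs were less stable, and none of the 7 members kept both of its opposite calls without any 1 library. Of the 7, Ndufv3 was the one that kept its call in 687g against Epcam hi, and its call in pB3 against pB2 (adjusted p = 0.0375) was lost without any 1 of the 4 libraries of those lines (0.12 to 0.214).

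Ndufb1-ps fits the symbol rule but is annotated as a non-coding RNA of a bidirectional promoter (GRCm38 chromosome 12, 101968090 to 101977068) and so was not a member. Its mean over the 8 libraries was 315 CPM. It was at 311 and 445 CPM in 687g, 171 and 318 CPM in Epcam hi, 353 and 266 CPM in pB3, and 310 and 348 CPM in pB2, and it was not called in any comparison of lines (edgeR adjusted p of 0.0854 or more).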

How the results depend on the processing

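The number of members called was 38 in pB3 against pB2, and 64 with total-count scaling or 61 with these lines fitted alone. It was 24 in 687g against Epcam hi, and 10 with these lines fitted alone. The main fit uses 1 spread per gene for all 4 lines, and the replicates of these lines differed more. Over members with a mean of at least 10 CPM, the SD of the log2 replicate ratio was 0.308 in 687g and 0.335 in Epcam hi. It was 0.132 in pB3 and 0.161 in pB2. The causes of the changed counts were not tested. Without 1 library in turn the counts ranged from 12 to 47 in pB3 against pB2, 9 to 34 in 687g against Epcam hi, 44 to 67 in Epcam hi against pB2 and 2 to 15 in 687g against pB3. The same ranges were 41 to 74 for the test over the 4 lines and 19 to 53 for the difference between the pairs. DESeq2 called 45, 28, 63 and 12 members in the 4 pair comparisons in that order, and fits without the expression filter called 31, 24, 61 and 10. None of the 57 named calls changed sign under these alternatives, but not all stayed called. With only the lines compared in the fit 6 were lost, with total-count scaling 4 and without the expression filter 3. Larger numbers were lost when a pB2 or pB3 library, 687g replicate 2 or Epcam hi replicate 1 was left out. In 687g against pB3 the split of the calls did change, with 5 members higher and 7 lower, but 7 higher and 5 lower without 687g replicate 1 and 6 each way with DESeq2 size factors. Same-numbered libraries of different lines correlated at -0.0982 to 0.173 in their deviations, so the numbers do not pair them, and with the replicate block 37, 21, 61 and 12 members were called. Total-count scaling lowered the share of higher calls over all genes in pB3 against pB2 to 37.6%, from 48.2% with TMM. With 2 libraries per line, a call near the threshold often rests on 1 library.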

Other observations

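Genes of the metabolic steps that feed the respiratory chain were counted on lists chosen in the same way. Of 19 tested genes of the tricarboxylic acid cycle, 9 were lower and 1 higher in pB3 against pB2, 9 lower and 2 higher in Epcam hi against pB2, 3 higher and 5 lower in 687g against Epcam hi, and 1 each way in 687g against pB3. Of 20 tested electron carriers and coenzyme Q genes, 11 were lower and 2 higher in pB3 against pB2 and 11 lower and 3 higher in Epcam hi against pB2. In 687g, 2 of these were higher and 5 lower than in Epcam hi, and 3 were higher and 2 lower than in pB3. Of 25 tested genes of mitochondrial import and the outer membrane, 6 were lower and 1 higher in pB3 against pB2, 13 lower and 1 higher in Epcam hi against pB2, 4 each way in 687g against Epcam hi, and 2 lower and 0 higher in 687g against pB3. Over all genes tested, 23.2% were lower and 21.6% higher in pB3 against pB2, and 25.6% lower and 25.8% higher in Epcam hi against pB2. In 687g, 18.4% were higher and 18.0% lower than in Epcam hi, and 12.8% were higher and 12.9% lower than in pB3. The import genes lower in pB3 against pB2, 6 of 25, were thus near the background.

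The following genes were called in all 4 pair comparisons and were named after their values were seen. Pcx, the pyruvate carboxylase that replenishes oxaloacetate, was at 0.949 and 1.55 CPM in 687g, 22.7 and 12.4 CPM in Epcam hi, 2.69 and 2.59 CPM in pB3, and 54.1 and 53.0 CPM in pB2. All 4 lines stood apart without overlap. Etfa, which passes electrons from fatty acid oxidation towards coenzyme Q, was at 257 and 312 CPM in 687g, 169 and 189 CPM in Epcam hi, 169 and 168 CPM in pB3, and 452 and 417 CPM in pB2. Timm50, a receptor of the inner membrane import machinery, was at 43.7 and 46.5 CPM in 687g, 61.1 and 67.8 CPM in Epcam hi, 71.1 and 75.0 CPM in pB3, and 126 and 98.0 CPM in pB2. Cox14, a complex IV assembly factor, was at 138 and 168 CPM in 687g, 96.8 and 111 CPM in Epcam hi, 111 and 101 CPM in pB3, and 147 and 148 CPM in pB2.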
